A study of Homo sapiens with 9 samples.

Results

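The genes described here are 38 heat shock chaperone genes of the cytosol and the mitochondria, chosen by name from the 58735 genes of the count and FPKM tables. They are 2 heat shock transcription factors, 5 HSP70 genes, 3 HSP110 genes, 2 HSP90 genes, 6 HSP90 co-chaperones, 8 J-domain co-chaperones, 4 genes for HSP70 nucleotide exchange and ubiquitin ligation, 3 small heat shock genes and 5 mitochondrial chaperones. The 38 names gave 39 entries, because HSPA14 has 2 overlapping entries on the same strand. mRNA was sequenced from 3 groups of cells with 3 libraries each. The control group was unedited Huh-7, a human hepatoma line with wild-type APOB and MTTP. Ako-3 is a Huh-7 clone whose APOB gene was disrupted with Cas9, and Mko-3 is a Huh-7 clone deficient in MTTP. APOB encodes the scaffold protein of secreted lipoproteins and MTTP the transfer protein that loads it with lipid. Every culture, controls included, spent the night before RNA isolation without serum. The labels call the libraries biological replicates, but each knockout is 1 clone, so the loss of the gene and the choice of the clone cannot be told apart.

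Heat shock chaperones bind unfolded segments of proteins and keep them from aggregating. J-domain proteins hand such clients to HSP70, which holds and releases them in a cycle driven by ATP, and nucleotide exchange factors such as the HSP110 and BAG proteins reset that cycle. HSP90 and its co-chaperones finish the folding of selected clients, while HSPD1 and HSPE1 form the folding chamber of mitochondria. Many of these genes are known targets of HSF1, a transcription factor that is held inactive by chaperones and binds heat shock elements as a trimer when unfolded proteins accumulate. A liver cell makes large amounts of secreted protein, which passes through the endoplasmic reticulum (ER) with a chaperone set of its own.

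Several of these genes moved together, so their promoters were searched for the heat shock element, whose unit GAA alternates with its complement TTC over gaps of any 2 bases. The 3-unit forms searched were GAANNTTCNNGAA and TTCNNGAANNTTC, and the 2-unit forms were GAANNTTC and TTCNNGAA. Each set is its own reverse complement, so both strands were read, and every 3-unit element contains 2-unit elements. The RefSeq promoter windows (GRCh38.p14, 250 bases before to 50 after each annotated start) held 33 of the 38 genes in 47 windows. HSF1, FKBP4, HSPA14, CRYAB and STUB1 had no entry. A 3-unit element was found in the windows of 7 of the 33 genes (21.2%), namely HSPA8, HSP90AA1, HSP90AB1, CHORDC1, DNAJA1, DNAJB6 and HSPD1. Of all 35116 windows 0.49% held one, and of all 27305 genes 0.608%. A 2-unit element was in 18 of the 33 genes (54.5%) and in 13.5% of all windows or 16.2% of all genes. A match is a run of letters and not a measured binding site.

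The stretches below are shown because they carry elements of genes given below with their values in every library, from the largest change (HSPA8) to smaller ones (HSP90AB1), and because HSPA1A and HSPA1B carry nearly the same stretch. Other genes with elements, such as DNAJB1, DNAJB6 and STIP1, are on the map of elements alone. Capitals mark the elements, 3-unit ones in the first 5 lines and 2-unit ones in the last 2. Positions count from the annotated start, with -1 the base before it. None of these bases lies in an exon of a canonical GENCODE transcript except 20 bases of DNAJA1, but 240 bases of HSPA8, 77 of HSP90AB1 and 28 of CHORDC1 lie in exons of other transcripts.
HSPA8, chr11:123062137-123062376, minus strand, -240 to -1: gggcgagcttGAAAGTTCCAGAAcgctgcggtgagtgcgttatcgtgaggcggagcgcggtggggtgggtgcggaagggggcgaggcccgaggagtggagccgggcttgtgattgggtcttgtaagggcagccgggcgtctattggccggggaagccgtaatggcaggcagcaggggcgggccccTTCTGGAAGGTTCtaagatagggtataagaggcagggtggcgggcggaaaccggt
HSP90AA1, chr14:102087045-102087164, minus strand, -120 to -1: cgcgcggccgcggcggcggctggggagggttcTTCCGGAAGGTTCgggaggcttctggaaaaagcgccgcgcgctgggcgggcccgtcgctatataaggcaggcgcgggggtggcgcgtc
HSP90AB1, chr6:44247763-44247942, plus strand, -180 to -1: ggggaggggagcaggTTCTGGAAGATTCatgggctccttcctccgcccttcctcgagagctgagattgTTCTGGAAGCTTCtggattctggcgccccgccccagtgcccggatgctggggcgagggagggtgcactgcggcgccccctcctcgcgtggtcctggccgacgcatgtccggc
CHORDC1, chr11:90223050-90223149, minus strand, -100 to -1: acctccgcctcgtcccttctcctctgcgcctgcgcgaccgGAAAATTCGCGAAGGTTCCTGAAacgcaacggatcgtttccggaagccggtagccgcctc
DNAJA1, chr9:33025173-33025292, plus strand, -100 to 20: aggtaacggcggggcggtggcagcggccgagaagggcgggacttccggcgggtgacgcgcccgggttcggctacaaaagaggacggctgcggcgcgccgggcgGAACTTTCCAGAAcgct
HSPA1A, chr6:31815393-31815542, plus strand, -150 to -1: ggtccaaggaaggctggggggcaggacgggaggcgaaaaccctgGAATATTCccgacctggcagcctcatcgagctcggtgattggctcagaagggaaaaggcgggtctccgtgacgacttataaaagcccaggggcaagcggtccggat
HSPA1B, chr6:31827588-31827737, plus strand, -150 to -1: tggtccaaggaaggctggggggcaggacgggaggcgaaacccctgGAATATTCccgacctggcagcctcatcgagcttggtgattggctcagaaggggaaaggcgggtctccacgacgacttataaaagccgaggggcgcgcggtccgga

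The elements differed in number and place. HSPA8 had a 3-unit element starting at -230 and another at -55, and HSP90AB1, in 1 of its 3 windows, had them at -165 and -112. In CHORDC1 there were 3 overlapping matches at -60, -55 and -50, which form a single run. HSP90AA1, in 1 of its 2 windows, had an element at -88 and DNAJA1 had one at 4, just inside the transcript. HSPA1A and HSPA1B each had a 2-unit element, at -106 and -105. HSPH1, HSPA2, BAG3 and HSPE1 had no match of either kind, which says only that these letters are not in these windows. HSPE1 shares a bidirectional promoter with HSPD1, which had overlapping 3-unit matches at -245 and -240 in 1 of its 2 windows.

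**Figure D1:**
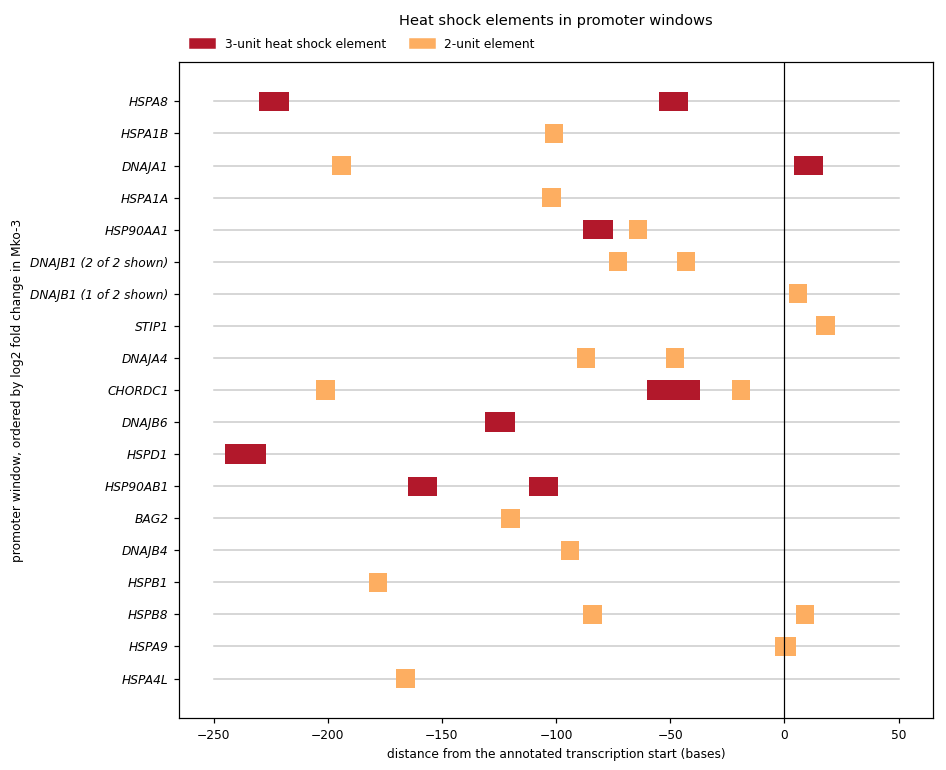
Heat shock elements in the promoter windows that hold at least 1, drawn as grey lines from 250 bases before to 50 after the annotated start, with the distance from the start in bases on the x axis; red blocks are 3-unit and orange blocks 2-unit elements, and windows are ordered by the log2 fold change of the gene in Mko-3. HSPA8, at the top, had elements at -230 and -55, while HSPA4L and HSPA9, at the bottom, had 2-unit elements alone.

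The labels were checked first on the targeted genes. APOB stood at 2683, 3508 and 3871 CPM (counts scaled to a common library size with TMM over the 9 libraries) in controls and at 1420, 1258 and 1266 in Ako-3, a log2 fold change of -1.36 ± 0.13 (SE). MTTP stood at 635, 604 and 663 CPM in controls and at 87.3, 90.7 and 82.9 in Mko-3, a log2 fold change of -2.88 ± 0.07. Both fell in the clone that the labels name for them. Total counts were 14638727 to 20179760 per library. The mitochondrially encoded genes took 5.52 to 6.17% of the counts in controls, 7.06 to 7.40% in Ako-3 and 5.75 to 5.82% in Mko-3. Of the hepatocyte markers, all 9 were detected and together stood at 5137 to 5304 FPKM in controls, 6105 to 6386 in Ako-3 and 5068 to 5309 in Mko-3. In Ako-3, 7 of the 9 were higher and 0 lower at the adjusted p, and in Mko-3 3 were higher and 2 lower, with AFP at a log2 fold change of 0.80, ALB at -0.49 and APOA1 at -0.43. Over all genes tested 25.5% were higher and 24.4% lower in Ako-3, and 26.9% and 27.1% in Mko-3. Markers of fibroblasts and stellate cells summed to 0.628 to 1.24 FPKM over the 9 libraries. Of the 5 leukocyte markers CD68 had no count in any library, and PTPRC and CD3E had means below 0.01 FPKM in every group, but LYZ was at means of 155 FPKM in controls, 187 in Ako-3 and 191 in Mko-3 and CD14 at 3.12, 5.49 and 3.87. LYZ rose in both clones (log2 fold changes 0.27 and 0.29) and CD14 in Ako-3 (0.80). Of the 4 endothelial markers KDR had no count and VWF stayed below 0.02 FPKM in every group mean, while PECAM1 rose in Ako-3 (log2 fold change 0.44) and fell in Mko-3 (-0.61), at mean CPM of 77.6 in controls, 106 in Ako-3 and 51.1 in Mko-3. CDH5 went the other way, with log2 fold changes of -0.30 in Ako-3 and 0.31 in Mko-3 that did not pass the adjusted p. Between the clones CDH5 was higher in Mko-3 (0.61) and passed. Of the cholangiocyte markers KRT7 had no count, but KRT19 was at 9.37 to 9.45 CPM in controls, 12.7 to 14.3 in Ako-3 and 68.7 to 73.5 in Mko-3. EPCAM was at mean CPM of 80.5, 128 and 183 and SOX9 at 350, 257 and 265, so that KRT19 and EPCAM rose and SOX9 fell in both clones. The part of these differences in the chaperone results was not tested.

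Taken as a group, the chaperone genes were higher in both knockout clones. The genes were chosen with earlier results of these data known, so the counts and medians of the group are a description and were not tested. Calls needed a log2 fold change of 1 or more in either direction, with an adjusted p of 0.05 or less in edgeR's quasi-likelihood test. CRYAB, a small heat shock protein with 1 to 7 counts per library, was too low to test, which left 38 entries of 37 genes. In Ako-3, 9 entries were called higher (23.7%, beside 3.52% of the 15787 genes tested) and 0 lower (5.00% of all genes). At the adjusted p alone, 28 were higher and 4 lower, beside 25.5% and 24.4% of all genes. In Mko-3, 8 were called higher (21.1%, beside 3.82% of 15745 genes) and 0 lower (7.22%), and at the adjusted p alone 29 were higher and 4 lower, beside 26.9% and 27.1%. At an unadjusted p under 0.05 in edgeR, 5 entries were lower in each clone, and DESeq2 called 0 lower in either. The median log2 fold change of the entries was 0.44 in Ako-3 and 0.47 in Mko-3, while that of all genes was -0.01 in both. Without TMM scaling the median of all genes moved to -0.10 in Ako-3 and to -0.08 in Mko-3, and the chaperone entries past the adjusted p were then 26 higher and 6 lower in each. Both comparisons use the same 3 control libraries, so their fold changes are not independent. The 8 genes called in both were HSPA8, HSPA1A, HSPA1B, HSPA2, HSPH1, HSP90AA1, DNAJA1 and DNAJB1.

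**Figure D2:**
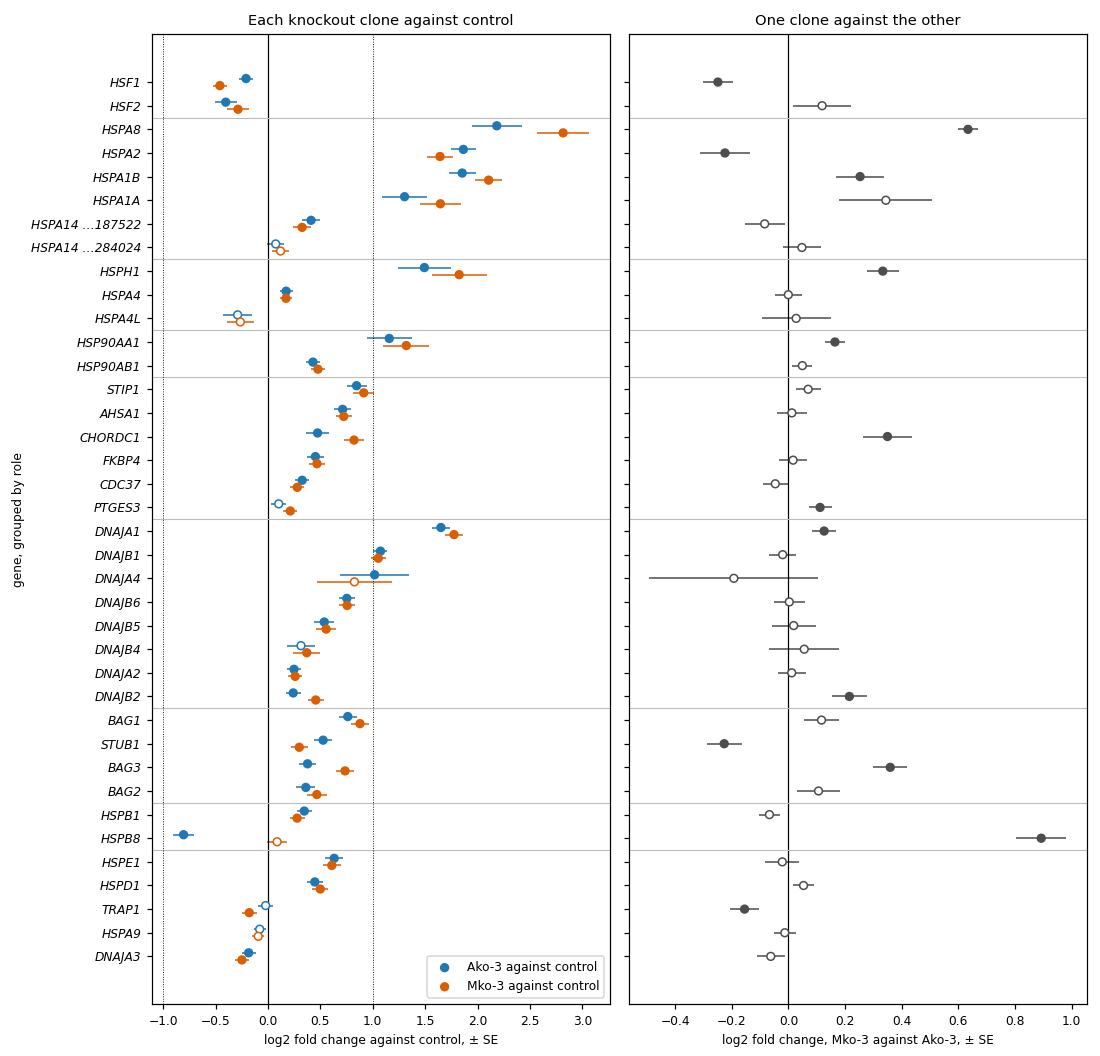
Log2 fold change ± SE of the 38 tested entries, grouped by role, for each clone against control (left, blue Ako-3 and orange Mko-3) and for Mko-3 against Ako-3 (right). Filled points passed the adjusted p of 0.05, open points did not, and dotted lines mark a log2 fold change of 1 in either direction; HSPA8 lies farthest to the right at left, and HSPB8 at right.

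The chaperone genes also took a larger share of each library. Their summed counts were 0.525% ± 0.053 (SD, n = 3) of all counts in controls, 0.737% ± 0.016 in Ako-3 and 0.816% ± 0.013 in Mko-3, and the 3 groups did not overlap. These shares are a description and were not tested, because the genes were chosen with results of these data known. The HSP70 genes went from 0.024% ± 0.005 in controls to 0.079% ± 0.001 in Ako-3 and 0.117% ± 0.004 in Mko-3. The mitochondrial chaperones differed less, at 0.118% ± 0.008, 0.126% ± 0.002 and 0.129% ± 0.001. Most of the added share lay in the HSP90 and HSP70 genes.

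**Figure D3:**
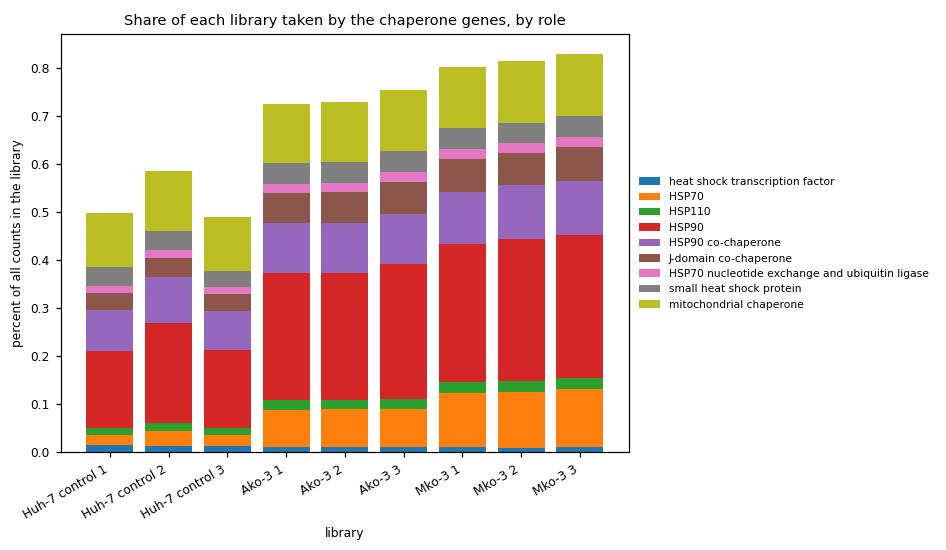
Share of all counts in each of the 9 libraries, in percent, taken by the 39 chaperone entries and stacked by role. The stacks reach about 0.525% in the mean of the control libraries, 0.737% in Ako-3 and 0.816% in Mko-3, and control replicate 2 is the highest of the controls.

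By length-corrected level the ubiquitous members led in every group. In controls HSP90AB1, the constitutive HSP90, was the highest at 385 ± 39 FPKM, followed by the small heat shock gene HSPB1 at 203 ± 24 FPKM. PTGES3, HSPD1 and HSP90AA1 came next at 116 ± 12, 115 ± 16 and 102 ± 29 FPKM, and their libraries overlapped. HSPA8, the constitutive HSP70, was in 8th place in controls at 30.4 ± 9.5 FPKM, in 5th place in Ako-3 at 138 ± 2 FPKM and in 4th place in Mko-3 at 215 ± 9 FPKM. HSP90AA1 went from 5th place to 3rd and then 2nd, at 228 ± 4 and 257 ± 9 FPKM. In each group 35 of the 38 genes had a mean above 1 FPKM. Of the 38 pairs of neighbours in the order, 24 overlapped in controls, 16 in Ako-3 and 17 in Mko-3, so places within the middle of the order are not separated by these libraries. Places and ratios between genes also depend on the deposited gene length, such as 14981 bases for DNAJB6 and 1977 for HSPE1.

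The transcription factors were lower, not higher. HSF1 (chr8:144291591-144314722, plus strand, hg38) is the main activator of the heat shock genes. It stood at 112, 108 and 104 CPM in controls, 94.4, 95.6 and 91.8 in Ako-3 and 81.8, 72.8 and 82.9 in Mko-3. The 3 groups did not overlap, with controls highest and Mko-3 lowest. The log2 fold change was -0.21 ± 0.06 in Ako-3 (adjusted p = 0.01) and -0.46 ± 0.07 in Mko-3 (adjusted p = 1e-05), and without Ako-3 replicate 3 the first was no longer past the threshold (adjusted p = 0.059). HSF2, a related factor with a role in development and stress, stood at 20.5, 19.2 and 20.04 CPM in controls, 16.3, 14.1 and 15.2 in Ako-3 and 17.8, 15.3 and 16.3 in Mko-3. All knockout libraries lay below the controls, with log2 fold changes at -0.40 ± 0.10 (adjusted p = 0.0031) and -0.29 ± 0.10 (adjusted p = 0.022). In Mko-3 HSF2 no longer passed the adjusted p in 5 of the 14 alternatives, with values up to 0.12. mRNA level does not measure HSF1 activity, which is set on the protein.

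Among the HSP70 genes HSPA8 changed most. This gene (chr11:123057489-123063230, minus strand, 9 exons in its canonical transcript) encodes HSC70, the HSP70 present in all cells without stress. It stood at 122, 202 and 122 CPM in controls, 664, 686 and 683 in Ako-3 and 1020, 1041 and 1098 in Mko-3. The groups were far apart, and control replicate 2 stood above the other controls. HSPA8 was 4.55-fold higher in Ako-3 (log2 fold change 2.18 ± 0.24, adjusted p = 0.0016) and 7.08-fold higher in Mko-3 (2.82 ± 0.25, adjusted p = 0.00077). Without control replicate 2 the log2 fold changes were 2.47 ± 0.06 and 3.11 ± 0.06. Without control replicate 1 they were smaller and less certain, at 2.055 ± 0.27 (adjusted p = 0.0093) and 2.69 ± 0.28 (adjusted p = 0.0051). The ratio of HSPA8 to HSPA9, its mitochondrial relative, in FPKM was 0.738 ± 0.248 in controls, 3.52 ± 0.11 in Ako-3 and 5.51 ± 0.20 in Mko-3.

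HSPA1A (chr6:31815464-31817946) and HSPA1B (chr6:31827735-31830255) are the neighbouring stress-inducible HSP70 genes, each with 1 exon on the plus strand. Their coding sequences of 1923 bases are 99.8% identical, with 4 mismatches, so reads from them can be shared or lost and the split between them is uncertain. HSPA1A stood at 1.77, 1.91 and 2.22 CPM in controls, 5.44, 4.48 and 4.81 in Ako-3 and 6.68, 5.60 and 6.40 in Mko-3. HSPA1B stood at 6.55, 4.69 and 5.77 CPM in controls, 20.6, 20.7 and 21.0 in Ako-3 and 23.0, 25.3 and 26.1 in Mko-3. For each gene the lowest knockout library was above the highest control. HSPA1A rose with log2 fold changes at 1.30 ± 0.21 (adjusted p = 3.3e-05) and 1.65 ± 0.20 (adjusted p = 5e-07). HSPA1B rose by 1.85 ± 0.13 (adjusted p = 5.1e-10) and 2.11 ± 0.13 (adjusted p = 2.4e-11). Summed before the fit, which does not depend on the split, the genes rose from 7.64 ± 0.92 CPM to 25.7 ± 0.4 and 31.0 ± 1.4, with log2 fold changes at 1.73 ± 0.12 (adjusted p = 2.1e-10) and 2.00 ± 0.11 (adjusted p = 6e-12).

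HSPA2 (chr14:64535905-64546173, plus strand) is an HSP70 known for its role in spermatogenesis and is also found at low level in other tissues. It stood at 6.29, 6.67 and 5.88 CPM in controls, 22.2, 24.5 and 22.2 in Ako-3 and 20.4, 17.7 and 21.1 in Mko-3. Its order of the clones was the reverse of that of HSPA8, with Ako-3 highest, though the difference between the clones missed the adjusted p in 6 of 14 alternatives. The log2 fold changes were 1.86 ± 0.12 (adjusted p = 1e-10) and 1.64 ± 0.12 (adjusted p = 6.5e-10). HSPA2 is 80.6% and HSPA8 73.9% identical to HSPA1A over the coding sequence, well below the likeness of the HSPA1A pair. HSPA14, a ribosome-associated HSP70, gave different values for its overlapping entries. The entry with the longer genomic span, which has the shorter deposited gene length (2644 bases beside 4924), rose by 0.41 ± 0.08 and 0.33 ± 0.08, and the other had values of 0.07 ± 0.08 (adjusted p = 0.48) and 0.12 ± 0.08 (adjusted p = 0.21), so the assignment of its reads is uncertain.

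**Figure D4:**
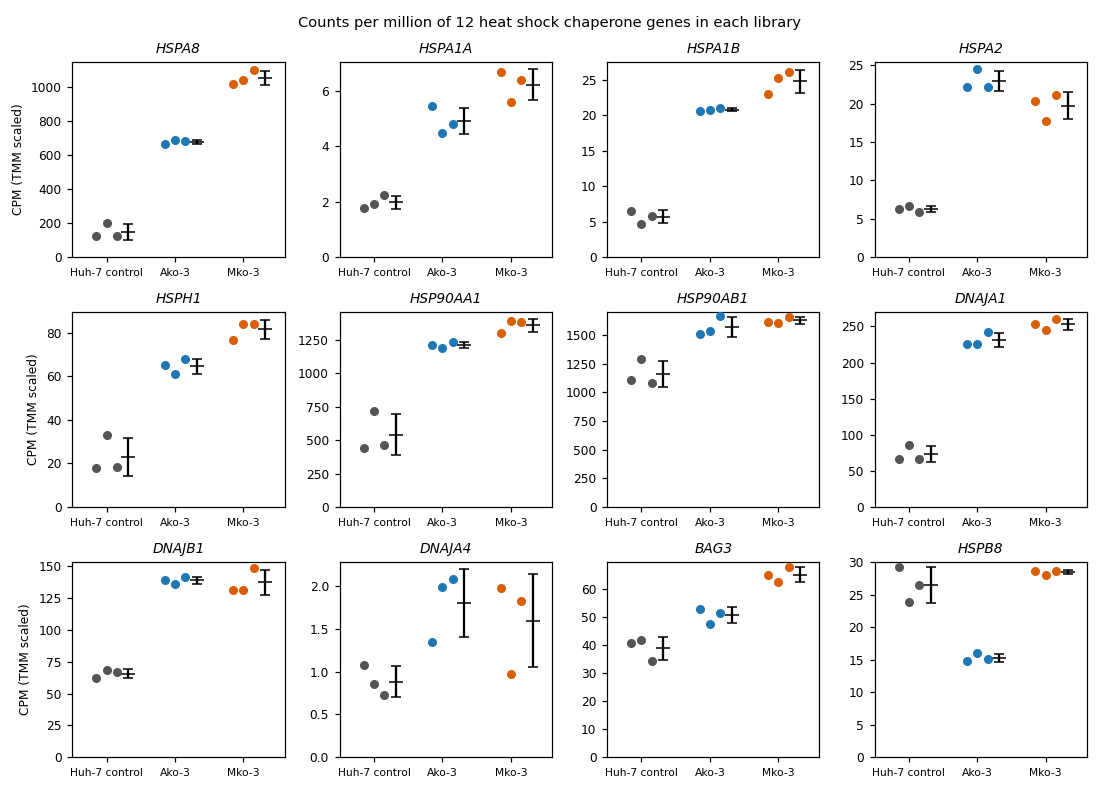
CPM, scaled with TMM, of 12 chaperone genes in each of the 9 libraries, with the mean and SD beside the points of each group and each axis starting at 0. HSPA8 reaches 1020 to 1098 CPM in Mko-3 beside 122 to 202 in controls, and HSPB8 is lower in Ako-3 alone.

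The HSP110 proteins are nucleotide exchange factors of HSP70 and help it to dissolve aggregates. HSPH1 (chr13:31134974-31162388, minus strand), the heat-inducible HSP110, stood at 17.9, 33.1 and 18.2 CPM in controls, 65.2, 61.0 and 67.8 in Ako-3 and 76.5, 84.2 and 83.9 in Mko-3. The groups did not overlap, and control replicate 2 was again the highest control. The log2 fold changes were 1.49 ± 0.25 (adjusted p = 0.0055) and 1.82 ± 0.26 (adjusted p = 0.0033), and 1.83 ± 0.09 and 2.18 ± 0.09 without control replicate 2. Without control replicate 1 they were 1.34 ± 0.27 (adjusted p = 0.019) and 1.67 ± 0.28 (adjusted p = 0.014). HSPA4 (chr5:133051962-133106449), a constitutive HSP110, stood at 113, 117 and 114 CPM in controls, 128, 127 and 134 in Ako-3 and 131, 125 and 133 in Mko-3. Its log2 fold change of 0.17 ± 0.06 in each clone passed the adjusted p narrowly, at 0.026 and 0.023, and was lost in 6 and 3 alternatives. HSPA4L, the third HSP110 gene, had log2 fold changes of -0.29 and -0.26 that did not pass (adjusted p = 0.085 and 0.084).

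The inducible HSP90 gene changed more than the constitutive one. HSP90AA1 (chr14:102080738-102139699, minus strand) stood at 444, 717 and 461 CPM in controls, 1212, 1190 and 1231 in Ako-3 and 1304, 1391 and 1381 in Mko-3. All 6 knockout libraries lay above control replicate 2, the highest control. It rose with log2 fold changes at 1.16 ± 0.21 (adjusted p = 0.0096) and 1.32 ± 0.22 (adjusted p = 0.0072), or 1.41 ± 0.06 and 1.59 ± 0.05 without control replicate 2. Without control replicate 1 they were 1.03 ± 0.23 (adjusted p = 0.034) and 1.20 ± 0.24 (adjusted p = 0.027). Without control replicate 3 the value in Ako-3 was 1.06 ± 0.24 (adjusted p = 0.037). HSP90AB1 (chr6:44246166-44253888, plus strand) stood at 1103, 1293 and 1081 CPM in controls, 1509, 1530 and 1667 in Ako-3 and 1612, 1604 and 1659 in Mko-3. It rose by 0.43 ± 0.07 (adjusted p = 2.6e-05) and 0.48 ± 0.06 (adjusted p = 2.1e-06). The ratio of HSP90AA1 to HSP90AB1 in FPKM was 0.262 ± 0.047 in controls, 0.439 ± 0.018 in Ako-3 and 0.475 ± 0.017 in Mko-3, and their coding sequences are 76.0% identical.

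All 6 HSP90 co-chaperones were above control, 5 of them past the adjusted p in Ako-3 (25.5% of all genes were higher) and 6 in Mko-3 (26.9%). STIP1, which links HSP70 to HSP90, stood at 97.3, 128 and 92.7 CPM in controls, 193, 185 and 195 in Ako-3 and 191, 202 and 209 in Mko-3. It rose by 0.84 ± 0.09 (adjusted p = 4.1e-06) and 0.91 ± 0.10 (adjusted p = 3.5e-06) on the log2 scale, with no overlap between controls and knockouts. CHORDC1, a co-chaperone with zinc-binding domains, stood at 15.5, 16.1 and 16.0 CPM in controls, 21.0, 20.3 and 25.2 in Ako-3 and 26.3, 29.7 and 28.8 in Mko-3. The 3 groups did not overlap, and the log2 fold changes were 0.47 ± 0.11 (adjusted p = 0.0011) and 0.82 ± 0.10 (adjusted p = 3.2e-07). AHSA1, which stimulates the ATPase of HSP90, rose by 0.71 ± 0.08 and 0.72 ± 0.08. FKBP4 rose by 0.45 and 0.47 and the kinase-loading factor CDC37 by 0.33 and 0.28. PTGES3, known as p23, had the smallest change, 0.10 ± 0.07 in Ako-3 (adjusted p = 0.24) and 0.21 ± 0.07 in Mko-3 (adjusted p = 0.011).

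Of the 8 J-domain co-chaperones, 7 were higher at the adjusted p in Ako-3 (25.5% of all genes) and 7 in Mko-3 (26.9%). DNAJA1 (chr9:33025211-33039907, plus strand), a major partner of HSPA8, stood at 67.0, 86.5 and 66.9 CPM in controls, 226, 225 and 243 in Ako-3 and 253, 246 and 260 in Mko-3. Its knockout libraries were all above 225 CPM and its controls below 87. DNAJA1 rose by 1.65 ± 0.09 (adjusted p = 6e-11) and 1.78 ± 0.08 (adjusted p = 1e-11) on the log2 scale. DNAJB1 (chr19:14514770-14529770, minus strand), the stress-inducible HSP40, stood at 61.9, 68.3 and 67.2 CPM in controls, 140, 136 and 142 in Ako-3 and 132, 132 and 149 in Mko-3. Its values in the clones overlapped and lay above every control, with log2 fold changes at 1.07 ± 0.07 (adjusted p = 8.5e-11) and 1.05 ± 0.07 (adjusted p = 1.2e-10). DNAJA4 was close to the limit of detection, at 1.07, 0.858 and 0.722 CPM in controls, 1.34, 1.99 and 2.09 in Ako-3 and 1.98, 0.971 and 1.83 in Mko-3. Its call in Ako-3 (1.02 ± 0.33, adjusted p = 0.014) was lost in DESeq2 (adjusted p = 0.058) and without control replicate 3, Ako-3 replicate 2 or Ako-3 replicate 3 (adjusted p = 0.062, 0.057 and 0.066), and its fold change fell under the threshold without TMM scaling (0.92) and without control replicate 2 (0.998). In Mko-3 the libraries overlapped the controls (0.82 ± 0.36, adjusted p = 0.056). Of the others, DNAJB6, known for suppressing the aggregation of polyglutamine proteins, rose by 0.75 ± 0.08 in both clones. DNAJB5 rose by 0.54 and 0.55, DNAJA2 by 0.25 and 0.26 and DNAJB2 by 0.24 and 0.46. DNAJB4 passed in Mko-3 at a log2 difference of 0.37 (adjusted p = 0.021), and its value of 0.31 in Ako-3 missed the threshold (adjusted p = 0.056).

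The BAG genes and STUB1 were higher in both clones, 4 of 4 at the adjusted p in each, beside 25.5% of all genes in Ako-3 and 26.9% in Mko-3. BAG1, which releases clients from HSP70 near the proteasome, stood at 32.1, 37.8 and 31.1 CPM in controls, 53.5, 59.8 and 58.5 in Ako-3 and 60.5, 65.2 and 60.9 in Mko-3. Each clone lay above the controls throughout, with log2 fold changes at 0.76 ± 0.09 (adjusted p = 3.4e-07) and 0.88 ± 0.08 (adjusted p = 1.7e-08). BAG3, which directs clients to autophagy, stood at 40.7, 41.8 and 34.2 CPM in controls, 53.0, 47.8 and 51.7 in Ako-3 and 65.2, 62.5 and 68.1 in Mko-3. The groups rose in that order without overlap, by 0.38 ± 0.09 (adjusted p = 0.00096) and 0.74 ± 0.08 (adjusted p = 1.8e-07) on the log2 scale. BAG2, an inhibitor of the ligase STUB1, rose by 0.36 and 0.47. STUB1, the ubiquitin ligase CHIP, rose by 0.53 ± 0.09 in Ako-3 and 0.30 ± 0.08 in Mko-3.

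The small heat shock genes did not share a direction. HSPB1, the abundant small heat shock protein HSP27, stood at 357, 359 and 290 CPM in controls, 427, 427 and 432 in Ako-3 and 410, 401 and 418 in Mko-3. It rose by 0.35 ± 0.07 (adjusted p = 0.00041) and 0.28 ± 0.07 (adjusted p = 0.0025). HSPB8, which works with BAG3 in selective autophagy of aggregates, stood at 29.3, 23.8 and 26.5 CPM in controls, 14.8, 16.0 and 15.1 in Ako-3 and 28.6, 28.1 and 28.7 in Mko-3. The Ako-3 libraries lay below every other library, while Mko-3 overlapped the controls. The log2 fold change was -0.81 ± 0.10 in Ako-3 (adjusted p = 1.9e-06) and 0.09 ± 0.09 in Mko-3 (adjusted p = 0.45). CRYAB was listed at means of 0.0504 to 0.106 FPKM.

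**Figure D5:**
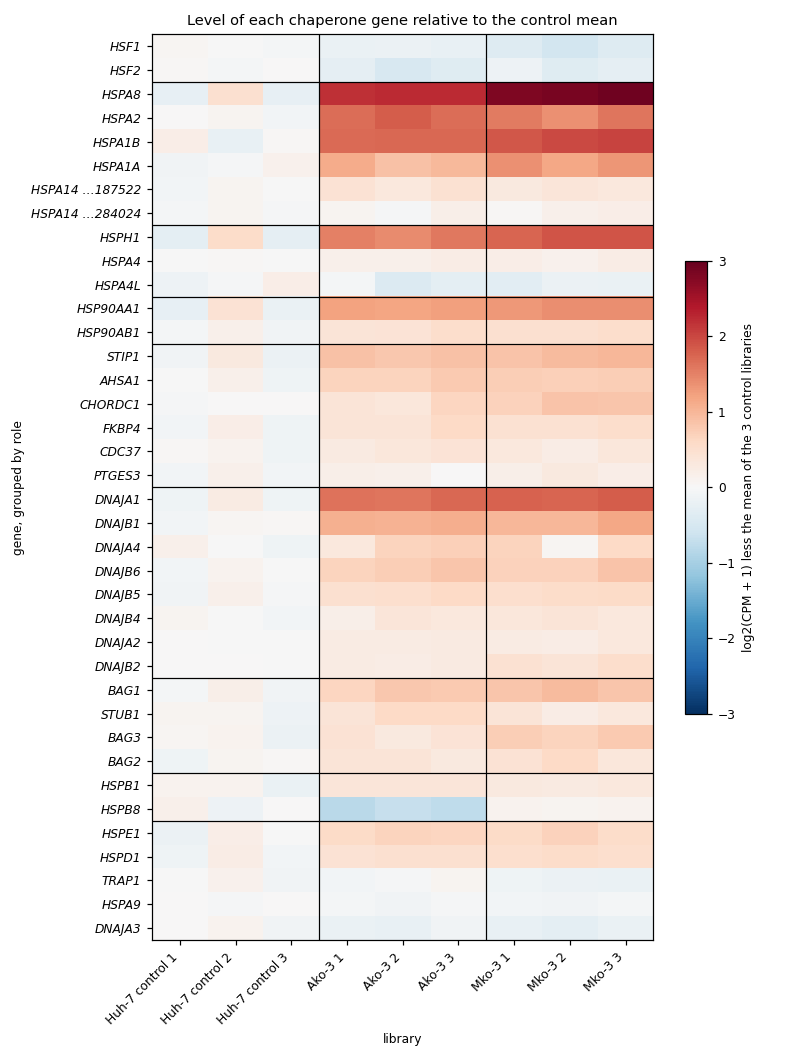
Level of the 38 tested entries in each of the 9 libraries, as log2(CPM + 1) less the mean of the 3 control libraries, with roles separated by horizontal lines and groups by vertical lines; the 2 HSPA14 entries are marked by the end of their identifiers. HSPA8 is the darkest row in both clones, HSPB8 is blue in Ako-3 alone, and control replicate 2 is redder than the other controls in HSPA8, HSPH1 and HSP90AA1.

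The mitochondrial chaperones divided into 2 that rose and 3 that did not. HSPD1 (chr2:197486581-197516737, minus strand), the HSP60 of the folding chamber, stood at 447, 573 and 460 CPM in controls, 668, 681 and 680 in Ako-3 and 694, 718 and 696 in Mko-3. Its lid HSPE1 (chr2:197499994-197503457, plus strand) stood at 33.6, 43.2 and 37.2 CPM in controls, 56.8, 60.5 and 59.8 in Ako-3 and 56.7, 62.1 and 55.9 in Mko-3. In both genes every knockout library was above every control. HSPD1 rose by 0.45 ± 0.08 (adjusted p = 9.4e-05) and 0.50 ± 0.08 (adjusted p = 2.8e-05), and HSPE1 by 0.63 ± 0.09 (adjusted p = 4.5e-06) and 0.61 ± 0.09 (adjusted p = 5.4e-06). These genes share a bidirectional promoter and their annotated spans overlap by 3464 bases. HSPA9, the mitochondrial HSP70, had log2 fold changes of -0.08 ± 0.06 and -0.09 ± 0.06 that did not pass. DNAJA3, its J-domain partner, fell by 0.19 ± 0.07 and 0.25 ± 0.07 on the log2 scale (adjusted p = 0.028 and 0.0032), though in Ako-3 it no longer passed the adjusted p in 6 of 14 alternatives. TRAP1, the mitochondrial HSP90, had -0.02 in Ako-3 and -0.18 in Mko-3 (adjusted p = 0.037), and the second no longer passed in 6 alternatives. With the mitochondrially encoded genes left out of the fit the counts of chaperone entries called and past the adjusted p were 9, 28 and 4 in Ako-3 and 8, 29 and 4 in Mko-3, as with them.

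The clones were compared with each other directly, a test in which the control libraries take no part. No chaperone entry was called at both thresholds in Mko-3 against Ako-3, where 2.26% of the 15528 genes were called higher and 3.47% lower. With the adjusted p alone 10 entries were higher and 4 lower in Mko-3 in edgeR (26.3% and 10.5%, beside 21.1% and 20.6% of all genes), and DESeq2 gave 9 and 3 and likewise called 0 at both thresholds. At an unadjusted p under 0.05 in edgeR, 11 were higher and 4 lower. The median log2 difference was 0.04. HSPB8 differed most, at 0.89 ± 0.09 (adjusted p = 3.6e-14), followed by HSPA8 at 0.63 ± 0.04 (adjusted p = 1.1e-25). BAG3, CHORDC1 and HSPH1 were higher in Mko-3 by 0.36 ± 0.06, 0.35 ± 0.08 and 0.33 ± 0.06, while HSF1, STUB1 and HSPA2 were lower by differences of -0.25 ± 0.05, -0.23 ± 0.06 and -0.22 ± 0.09. The difference of HSPA2 passed narrowly (adjusted p = 0.036) and missed the threshold in 6 of 14 alternatives. Others gave no difference past the threshold, with 95% intervals of -0.12 to 0.07 for DNAJB1, -0.14 to 0.10 for HSPE1, -0.02 to 0.12 for HSP90AB1 and 0.02 to 0.67 for HSPA1A, whose adjusted p was 0.085. Summed with HSPA1B, the inducible HSP70 genes were higher in Mko-3 by 0.27 ± 0.08 (adjusted p = 0.0031).

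Set beside the promoter search, the 7 genes with a 3-unit element had a median log2 fold change of 0.75 in Ako-3 (0.43 to 2.18) and 0.82 in Mko-3 (0.48 to 2.82). All 7 passed the adjusted p as higher in both, beside 25.5% of all genes in Ako-3 and 26.9% in Mko-3. Of all chaperone entries tested, with or without an element, 73.7% passed as higher in Ako-3 and 76.3% in Mko-3. The 11 genes with 2-unit elements alone had medians of 0.36 (-0.81 to 1.85) and 0.47 (-0.26 to 2.11), and the 15 with neither had medians of 0.33 (-0.40 to 1.86) and 0.46 (-0.29 to 1.82). HSPE1 is counted among the 15 with neither, though it shares a bidirectional promoter with HSPD1, which is counted among the 7. The ranges overlap widely, and HSPA2 and HSPH1, with neither element in their windows, changed more than HSP90AB1 and HSPD1, which hold 3-unit elements. This is a description and was not tested.

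Other genes of the folding machinery gave a mixed picture, to be read against the 25.5% of all genes that were higher and 24.4% lower at the adjusted p in Ako-3 and the 26.9% and 27.1% in Mko-3. Of the 8 subunits of TRiC, the cytosolic chaperonin that folds actin and tubulin, 7 were higher in Ako-3 and 7 in Mko-3 with none lower, and the medians were 0.55 and 0.65. Of the 6 subunits of prefoldin, which delivers clients to TRiC, 1 was higher and 1 lower in Ako-3 and 2 and 1 in Mko-3. Of 16 further HSP90 co-chaperones 9 were higher and 0 lower in Ako-3 and 8 and 3 in Mko-3. Of 19 tested further HSP70, J-domain, BAG and small heat shock genes, 9 were higher and 5 lower in Ako-3 and 9 and 3 in Mko-3. DNAJC9, a J-domain protein that chaperones histones, rose by 1.12 ± 0.11 in each clone, and HSPA12B, a distant HSP70 relative, by 1.49 ± 0.16 and 0.89 ± 0.17. HSPB6, a small heat shock gene at means of 1.33 CPM in controls, 0.589 in Ako-3 and 0.529 in Mko-3, was called lower in both, at -1.19 ± 0.38 (adjusted p = 0.013) and -1.32 ± 0.41 (adjusted p = 0.0091). Of 15 mitochondrial import and quality control genes 7 were higher and 3 lower in Ako-3 and 4 and 3 in Mko-3, with medians of 0.00 and -0.05. In the ER set 12 of 14 chaperones were higher in each clone with none lower. Among them were MANF, a secreted ER stress protein, at 1.06 ± 0.09 and 1.46 ± 0.08, and HSPA5 at 0.80 ± 0.07 and 1.05 ± 0.07.

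Other heat shock regulators and heat-inducible genes moved in both directions. Of the 15 tested, 5 were higher and 5 lower in Ako-3 (25.5% and 24.4% of all genes) and 6 and 5 in Mko-3 (26.9% and 27.1%), with medians of -0.15 and 0.18. Among those that rose in both clones were SERPINH1, the collagen chaperone of the ER, by 0.69 ± 0.07 and 0.63 ± 0.07, DEDD2 by 0.83 ± 0.09 and 0.60 ± 0.09 and HMOX1, a heme oxygenase, by 0.52 ± 0.07 and 0.42 ± 0.08. ATF3, a stress-induced transcription factor, stood at 46.3, 54.3 and 47.7 CPM in controls, 12.1, 13.6 and 13.5 in Ako-3 and 21.1, 21.7 and 20.4 in Mko-3. JUN, a subunit of AP-1, stood at 398, 399 and 360 CPM in controls, 154, 167 and 160 in Ako-3 and 226, 218 and 222 in Mko-3. Both lay lower in each clone with no overlap. ATF3 fell by 1.92 ± 0.09 (adjusted p = 2.6e-12) and 1.24 ± 0.09 (adjusted p = 2.4e-10) on the log2 scale, and JUN fell by 1.27 ± 0.06 and 0.81 ± 0.06.

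Some values carry limits from the counting. Control replicate 2 held the highest control value in 27 of the 39 entries, Ako-3 replicate 3 the highest Ako-3 value in 24 and Mko-3 replicate 3 the highest Mko-3 value in 21, and the controls varied more among themselves than the knockouts, with a median coefficient of variation over the entries of 10.1% in controls, 5.01% in Ako-3 and 4.36% in Mko-3. Over 11227 expressed genes the medians were 7.74%, 5.20% and 5.00%, so the controls varied more there too. The library protocol names dTTP for the second strand, read here as no strand marking, and the strand setting of the counting was not given in the sources used here. If strand was not used, reads of a gene and of a partner overlapping on the other strand cannot be told apart. Partners on the other strand with a median of 104 counts or more over the libraries were HSPE1 and MOB4 for HSPD1, HSPD1 for HSPE1, TECR for DNAJB1, WDR61 for DNAJA4, PDE4A for CDC37, DNASE1 for TRAP1, RAB23 for BAG2, JMJD8 for STUB1, DGAT1 for HSF1, WDR20 for HSP90AA1, VIPAS39 for AHSA1 and CDNF for HSPA14. HSPD1 had a median of 10930 counts and HSPE1 of 930, so HSPE1 is the more exposed of this pair. Processed copies took few reads, at most 3.84% of the counts of HSPE1, 1.99% of those of CDC37 and 1.32% of those of HSPA8 in any library. Whether reads that match both a gene and a copy were kept is not given in the sources used here. Reads that the genes may have lost in this way were not assessed.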

How the data were processed

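RNA sequencing of Huh-7 control, Ako-3 and Mko-3 cells was analysed, with 3 libraries each, grouped by the sample titles. Per the labels and the study's methods, the authors aligned reads to hg38 with HISAT2 2.0.5 and counted them on genes with featureCounts 1.5.0-p3, and deposited raw counts. The deposited FPKM values are these counts divided by gene length and a scaling factor set over all groups together, and the authors' gene length in bases stands beside them. Total counts of 14638727 to 20179760 per library leave genes near 10 counts with wide errors.

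Each comparison was fitted on its 6 libraries over all genes with edgeR 4.0.16 in R 4.3.3 (TMM, genes kept by filterByExpr with min.count 10, quasi-likelihood F test with robust dispersion), and p values were Benjamini-Hochberg adjusted over all genes tested. The script was tested on simulated data. The SE is the size of the log2 fold change divided by the square root of F, and intervals are 1.96 SE to each side. The authors' study used DESeq2, run here in version 1.42.0 as an alternative. CPM used TMM over 9 libraries. A pseudocount of 1 was added before the log2 values of the heat map. The chaperone genes, the other gene lists and the markers were chosen with earlier results of these data known.

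Values are given per library for members called in any comparison, for HSF1, HSF2, HSPA1A and HSPA1B, and for the 2 members per role with the largest changes past the adjusted p. Outside the members, APOB, MTTP and at most 2 called genes per list are named, and the other marker genes, HSPB6, SERPINH1, DEDD2 and HMOX1 were added after their values were seen. Positions are those of the deposited table. All 39 entries overlapped the same gene on the same strand in GENCODE release 44, from which exons and coding sequences were taken; coding sequences were aligned end to end with Biopython 1.88. Replicate numbers did not pair the libraries, with correlations of same-numbered deviations from -0.215 to 0.178. Alternatives were other scaling, other filters, 1 fit of all libraries, the replicate block and leaving out each library.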

Additional observations from a re-analysis of the deposited data

Results flagged for a closer look

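The clones differed from each other, by the direct test of Mko-3 against Ako-3 in edgeR at an adjusted p of at most 0.05, in 14 chaperone genes, 10 higher and 4 lower in Mko-3 (26.3% and 10.5% of entries, beside 21.1% and 20.6% of all genes). The differences in log2 fold change, Mko-3 less Ako-3, were 0.89 for HSPB8, 0.63 for HSPA8, 0.36 for BAG3, 0.35 for CHORDC1, 0.33 for HSPH1, 0.25 for HSPA1B, 0.22 for DNAJB2, 0.16 for HSP90AA1, 0.13 for DNAJA1 and 0.11 for PTGES3. On the lower side they were -0.25 for HSF1, -0.23 for STUB1, -0.22 for HSPA2 and -0.16 for TRAP1. For HSPB8 alone the clones also lay on opposite sides of the control mean, at -0.81 in Ako-3 and 0.09 in Mko-3, though the second value did not pass the test. Of the 14 differences, 7 passed in each of the 14 alternatives, namely those of HSPB8, HSPA8, BAG3, CHORDC1, DNAJB2, HSF1 and STUB1, and the other 7 missed the threshold in at least 1. Groups of 3 libraries are too small for a test of single outlying libraries.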

How the results depend on the processing

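Against control, 27 of the 32 chaperone entries past the adjusted p in Ako-3 and 28 of 33 in Mko-3 passed in each of the 14 alternatives, and 7 of the 9 and 7 of the 8 called entries stayed called. DNAJB1 was the exception in Mko-3 and, with DNAJA4, in Ako-3; without TMM scaling DNAJB1 was at 0.98 in each clone. That setting gave a median of 0.34 in Ako-3, made the HSPA14 entry of shorter span -0.021 there, and between the clones turned HSPA4 to 0.025, HSPA9 to 0.013, HSPE1 to 0.0041 and DNAJB1 to 0.0052. DESeq2 and a fit without the low-count filter each left 2 lower entries in Mko-3, and the latter turned HSPA4 to 0.0047 between the clones. With all 9 libraries in 1 fit, 7 entries differed between the clones, 5 higher and 2 lower, with HSPA4 at 0.0015. Between the clones DNAJB6 turned to -0.00061 with DESeq2 size factors and to -0.0016 with at least 10 counts in every library. With the replicate block 30 and 33 entries passed against control and 14 between the clones, and 9, 8 and 0 were called. Same-numbered libraries did not deviate together, so the numbers do not pair them; under the block HSPA4 and DNAJA3 no longer passed the adjusted p in Ako-3. Leaving out each library in turn gave 2 to 4 lower entries in Mko-3, a median of 0.44 to 0.58 there and of 0.0051 to 0.061 between the clones, with -0.077 to 0.047 for TRAP1 in Ako-3. Between the clones the ranges were -0.0077 to 0.051 for AHSA1, -0.015 to 0.029 for DNAJA2, -0.39 to 0.071 for DNAJA4, -0.081 to 0.012 for DNAJB1, -0.0063 to 0.060 for DNAJB5, -0.051 to 0.051 for DNAJB6, -0.020 to 0.089 for FKBP4, -0.0094 to 0.10 for that HSPA14 entry, -0.019 to 0.024 for HSPA4, -0.061 to 0.14 for HSPA4L, -0.028 to 0.0021 for HSPA9 and -0.070 to 0.0064 for HSPE1. The cause of these shifts was not tested. At these depths DNAJA4, HSPA1A and CRYAB, with few counts, carry the widest errors.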
